A study of Rattus norvegicus with 6 samples.

Results

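The miR-101 family and the family of miR-148 and miR-152 were followed in the hearts of rats with chronic colitis. The members were all probes of a rat miRNA microarray whose names carry the stems miR-101a, miR-101b, miR-148a, miR-148b or miR-152, which gave 10 probes, a 3p and a 5p arm for each stem, of 761 rat miRNAs on the array. The families were selected on their measured change between control and DSS hearts, because miR-101a-3p and miR-148a-3p were much lower in DSS hearts on these arrays, and miR-148b and miR-152 were added for their shared seed. Differences between control and DSS hearts are therefore given for the members as a description, with standard errors but no p-value.

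Adult male Sprague Dawley rats formed 2 groups of 3, and total RNA of each heart was hybridized to 1 single-color array. The control rats (animals 9, 10 and 11) drank plain water. The DSS rats (animals 13, 14 and 16) received 3% dextran sodium sulfate, which injures the colonic lining, for 5 days in each of 4 cycles, with 9 days of normal water per cycle. Whole-heart RNA was used, so that fewer cells of a type and less of a miRNA per cell cannot be told apart.

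A miRNA guides an Argonaute protein to mRNAs that pair with its seed, bases 2 to 8 counted from its 5′ end, and lowers their output. Both families are known for targets among chromatin modifiers. miR-101 targets Ezh2, the methyltransferase of Polycomb repressive complex 2, and miR-148 and miR-152 target Dnmt1, the enzyme that maintains DNA methylation. None of these mRNAs was measured here.

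The 3p arms, on which the results turn, are shown to make the shared seeds visible, which are in capitals. The sequences are those of the deposited files, and RefSeq holds the same ones.
rno-miR-101a-3p: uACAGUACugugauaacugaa
rno-miR-101b-3p: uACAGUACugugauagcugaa
rno-miR-148a-3p: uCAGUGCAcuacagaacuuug
rno-miR-148b-3p: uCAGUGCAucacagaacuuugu
rno-miR-152-3p: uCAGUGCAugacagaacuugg
The prefix rno marks the rat and is left out from here on. Counted from the 5′ end, miR-101a-3p and miR-101b-3p differed by 1 of 21 bases, A16G. miR-148a-3p differed from miR-148b-3p by C9U and U10C over 21 compared bases, and miR-148b-3p from miR-152-3p by C10G and U20G. Cross-hybridization between such close members was not tested. Outside the members, no other miRNA on the array came within an edit distance of 4 of any of these 5 sequences. 1 further probe shared bases 2 to 7 with a member, miR-144-3p, an erythroid miRNA, which departs from miR-101a-3p at the end of the seed (C8U).
rno-miR-144-3p: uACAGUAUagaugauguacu
In 0 of 6 hearts did miR-144-3p pass the detection limit, and its log2 signal lay between 6.02 and 6.39.

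By the RefSeq annotation of GRCr8, the 5 stems come from 5 separate loci. Mature miR-101a-3p lies at chr5:121081691-121081711 on the minus strand, within the span of the long non-coding gene LOC120102934. miR-101b-3p lies at chr1:236273982-236274002 on the plus strand within Rcl1. miR-148a-3p lies at chr4:81664447-81664467 on the minus strand and within no gene listed other than its own hairpin. miR-148b-3p, at chr7:136299930-136299951, and miR-152-3p, at chr10:82329435-82329455, both on the plus strand, lie within Copz1 and Copz2, paralogs that encode the zeta subunit of the COPI coat. The gene table used gives no exons, so that exonic and intronic positions were not assigned.

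Signals are log2 values after background correction, averaging of the 4 spots of a probe and cyclic LOWESS normalization between arrays. Detection required 2 of the 4 spots to exceed the background of their array by over 3 times the SD of its empty spots, each with a pixel CV below 0.5. Between 223 and 365 miRNAs were detected per array, and the 282 detected on at least 3 arrays entered the fit. Across them limma placed 80 lower and 59 higher in DSS hearts at an adjusted p under 0.05, and the median log2 change was -0.06. Of the heart muscle markers, 5 of 6 were detected in control hearts and miR-208b-3p on no array, while miR-133a-3p, the muscle miRNA, was detected on all 6 arrays.

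All 5 of the 3p arms had a lower mean in DSS hearts, the largest decrease being that of miR-148a-3p at 5.62-fold and the smallest that of miR-148b-3p at 1.64-fold. Their median log2 change was -1.59. A lower mean was found for 52.1% of the 282 miRNAs. The limma fit placed 3 of the 5 past its threshold (miR-101a-3p, miR-101b-3p and miR-148a-3p), where 28.4% of the 282 were lower at that threshold, and since the members were chosen in this comparison nothing is read from the count. In 4 of the 5, all DSS values lay below all control values, as they did for 34.8% of the 282.

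**Figure D1:**
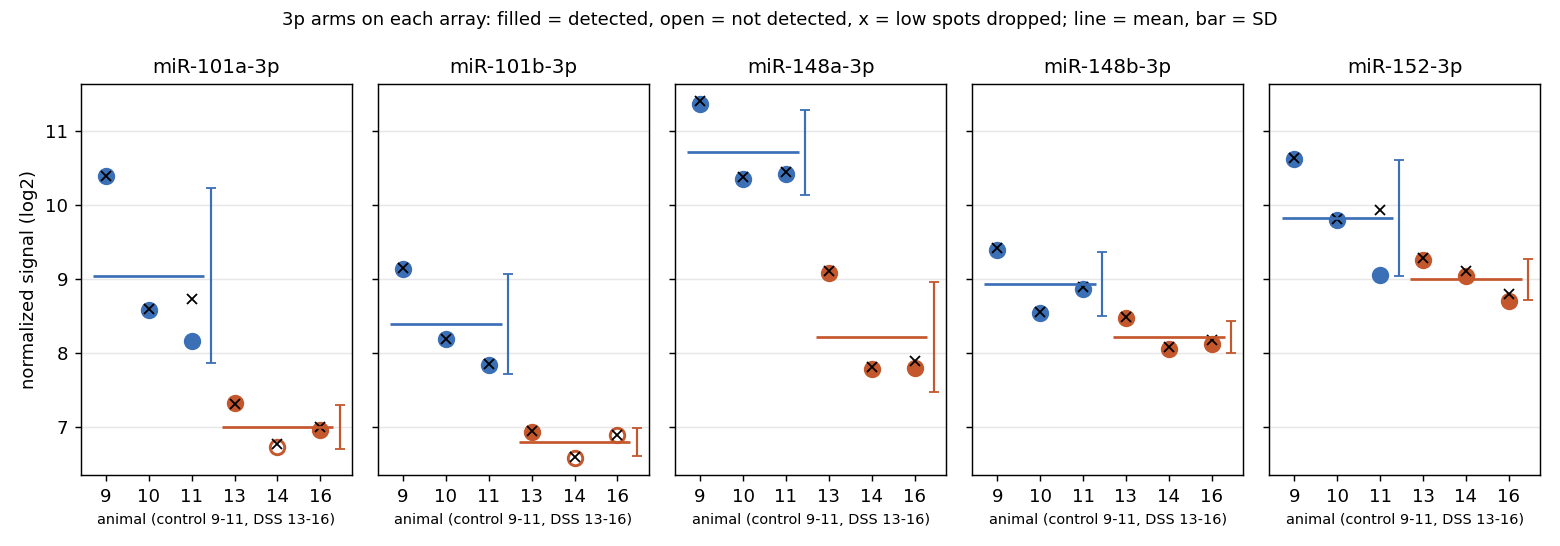
Normalized log2 signal of the 3p arms (y axis) on each array (x axis, animal number), with control hearts in blue and DSS hearts in orange, filled circles where the probe was detected and open circles where it was not. Lines are group means and bars the SD (n = 3), and crosses are the values with aberrantly dim spots dropped. For miR-101a-3p the DSS hearts lie between 6.72 and 7.31, below all control hearts, whereas for miR-152-3p the circle of control animal 11 falls to 9.05 among the DSS hearts and its cross does not. Heights are not compared between panels, since each probe has its own response.

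For miR-101a-3p the log2 signal was 10.39, 8.58 and 8.15 in control animals 9, 10 and 11, and 7.31, 6.72 and 6.96 in DSS animals 13, 14 and 16. The groups did not overlap, but control animal 9 stood well above the other two. The mean fell by 2.04 on the log2 scale (standard error 0.56), from 9.04 ± 1.18 to 7.00 ± 0.30 (SD, n = 3 each). Without control animal 9 the log2 change was -1.37. The probe was detected in 3 control hearts and in 2 DSS hearts, with 0 of 4 spots passing in DSS animal 14. Its mean brightness above background in DSS animals 14 and 16 was 2.36 and 2.72 times the SD of the empty spots. These 2 values lie close to the detection limit, whereas DSS animal 13 stood at 27.2 times that SD.

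miR-101b-3p, which differs by a single base, was also lower. Its log2 signal was 9.14, 8.19 and 7.83 in the control hearts and 6.92, 6.58 and 6.88 in the DSS hearts. The change was -1.59 (standard error 0.35), and only DSS animal 13 of the 3 DSS hearts passed detection. The log2 change of miR-101a-3p minus that of miR-101b-3p was -0.45 (standard error 0.31). In the deposited processed values, on a linear scale, miR-101a-3p was 722 ± 640 in control hearts and 63.0 ± 42.9 in DSS hearts (SD, n = 3 each), a ratio of means of 11.5. For miR-101b-3p these values were 523, 222 and 161 against 69, 32 and 41, a ratio of 6.38. On the log2 scale used here, which has an offset of 50 added to each signal, the folds were 4.12 and 3.01. These folds come from means of log2 values, not from means on a linear scale. With plain background subtraction the log2 changes were -2.86 and -2.33. Since miR-101b-3p was detected in 1 of 3 DSS hearts and miR-101a-3p in 2, these sizes rest partly on signals under the detection limit and are not exact.

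For miR-148a-3p the log2 signal was 11.36, 10.35 and 10.41 in control hearts and 9.07, 7.78 and 7.79 in DSS hearts. Every DSS value lay below every control value, with DSS animal 13 nearest to the controls. The mean fell by 2.49 (standard error 0.44), from 10.71 ± 0.57 to 8.22 ± 0.74 (SD, n = 3 each), and all 4 spots were detected on all 6 arrays. The gap was already present before normalization. The mean spot brightness above background was 2170, 1117 and 1641 scanner units in the control hearts and 814, 97.1 and 132 in the DSS hearts.

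miR-148b-3p, with the same seed, changed much less. Its log2 signal was 9.39, 8.54 and 8.86 in control hearts and 8.46, 8.05 and 8.11 in DSS hearts, so that the groups were separated only by the small gap between control animal 10 and DSS animal 13. The change was -0.72 (standard error 0.26). The spot brightness before normalization overlapped between the groups, at 426, 239 and 480 against 502, 187 and 191. The log2 change of miR-148a-3p minus that of miR-148b-3p was -1.77 (standard error 0.33), a description only, since miR-148a-3p was selected for its decrease.

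miR-152-3p gave 10.62, 9.79 and 9.05 in control hearts and 9.25, 9.04 and 8.70 in DSS hearts, a change of -0.83 (standard error 0.40), and the groups overlapped because control animal 11 fell below DSS animal 13. A single spot set this value. On the array of control animal 11 the 4 spots read 1206, 1190, 1025 and 55.0 above background, while on the array of control animal 10 they lay between 682 and 782. Those of DSS animal 13 lay between 852 and 967, above all spots of control animal 10. Before normalization the groups therefore overlapped apart from the dim spot as well. With the median of the 4 spots in place of the mean, control animal 11 rose to 9.87, the groups no longer overlapped, and the change became -1.07 (standard error 0.29). Dropping spots under 25% of the median of the other spots, an alternative chosen after seeing the data, gave -1.06. Without control animal 9 the change of miR-152-3p was -0.43. In the deposited processed values its groups did not overlap, at 1728, 958 and 982 in control and 547, 325 and 343 in DSS hearts, a ratio of means of 3.02. There the ratios of miR-148a-3p and miR-148b-3p were 8.45 and 2.37. Between miR-148b-3p and miR-152-3p the change differed by 0.11 (standard error 0.37), or by 0.35 with the dim spots dropped, which does not show that both changed alike.

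**Figure D2:**
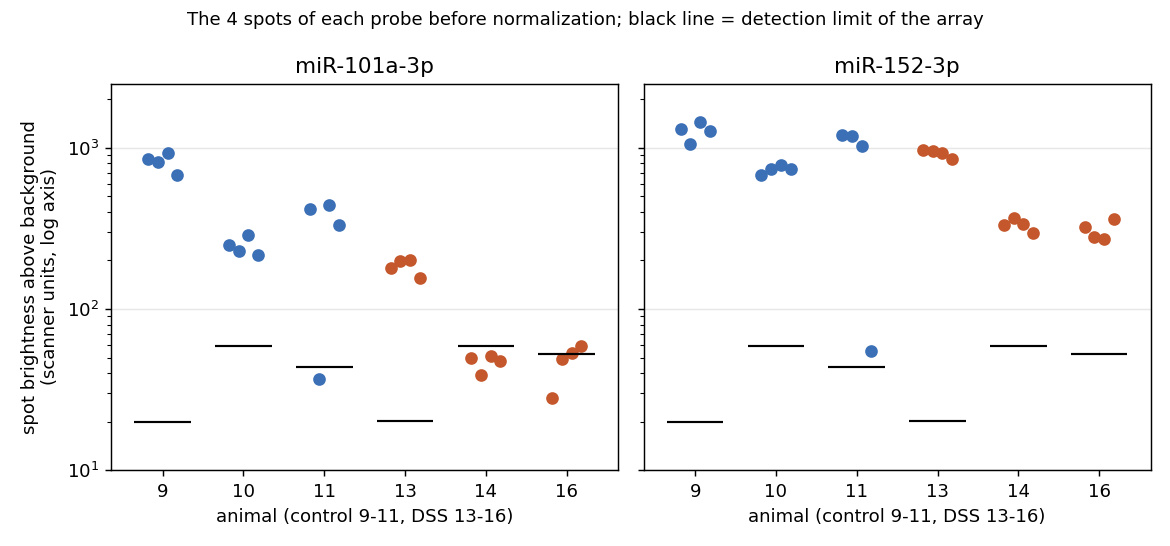
Brightness above background of the 4 spots of the miR-101a-3p and miR-152-3p probes (y axis, scanner units, log axis) on each array before normalization (x axis, animal number; control blue, DSS orange). Black lines mark the detection limit of the array. On control animal 11, 1 spot of each probe sits far below its 3 neighbours, at 36.6 for miR-101a-3p and 55.0 for miR-152-3p.

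The same array held a dim spot of miR-101a-3p, where 36.6 stood beside 416, 441 and 332. With the median of the spots the log2 change of miR-101a-3p was -2.14. Over all detected miRNAs, 16 probes on control animal 11 had such a spot, against 0 on control animals 9 and 10 and between 1 and 4 on the DSS arrays. No member other than these 2 was affected on that array.

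Within each group the 3p arms kept a common order at the top. Control animal 9 was the highest control heart and DSS animal 13 the highest DSS heart in 5 of 5. Both held together for 82 of the 282 miRNAs tested, and for 73 of the 147 with a lower mean in DSS hearts. The arrays of these 2 animals also had the lowest detection limits, 20.0 and 20.3 scanner units above background against 43.9 to 59.3 on the others, and the part of this in the order was not tested.

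Signal from the 5p arms, the opposite strand of each hairpin, stayed near the background. Of the 5, only miR-152-5p passed on any array, in DSS animal 13, where its log2 signal was 6.58 against 6.48 in control animal 11 without a pass. Mean log2 signals of the 5p arms lay between 6.03 and 6.38 in both groups, and no change could be measured for them at this brightness.

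**Figure D3:**
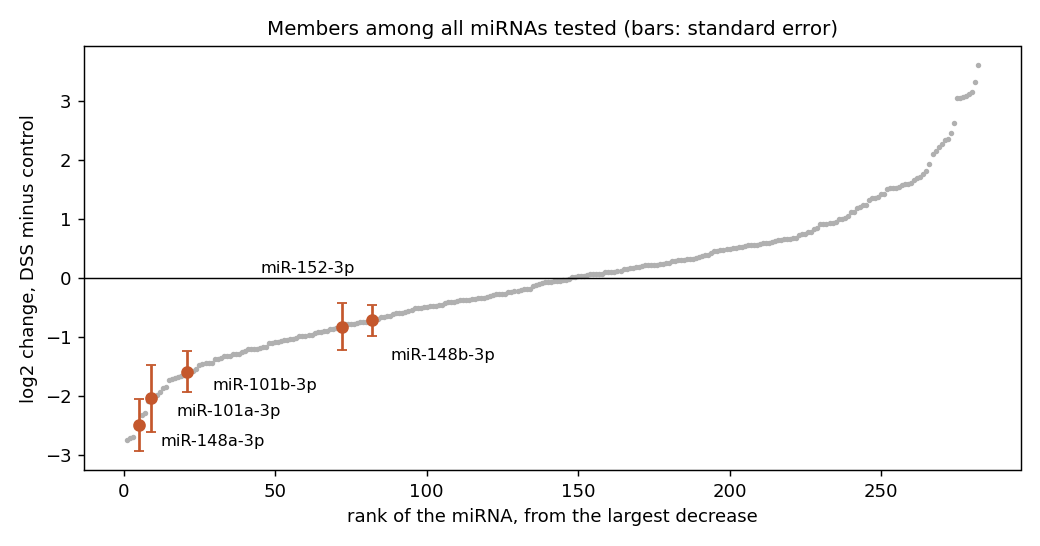
Log2 change of all 282 miRNAs tested (y axis, DSS minus control) ordered from the largest decrease (x axis, rank), with the 5 members in orange and their standard errors as bars. miR-148a-3p ranks 5, miR-101a-3p 9 and miR-101b-3p 21, while miR-152-3p and miR-148b-3p rank 72 and 82.

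The size of the decrease, and for miR-148b-3p and miR-152-3p its direction, rested on the scaling between arrays. When spike-in probes set the scale of each array, the median change of all 282 miRNAs moved from -0.06 to 1.14. The members then read -0.78 for miR-101a-3p, -0.22 for miR-101b-3p and -1.64 for miR-148a-3p, but 0.41 for miR-148b-3p and 0.03 for miR-152-3p. With scaling to the 5S rRNA probes the median of all was 0.78 and miR-148b-3p stood at 0.05. Relative to that median, which a single factor per array does not alter, the changes under both scalings were -1.92, -1.36, -2.78, -0.73 and -1.10 in the order of the sequences above. Over the alternatives the change ranged from -3.35 to -0.78 for miR-101a-3p, from -2.54 to -0.22 for miR-101b-3p and from -3.38 to -1.64 for miR-148a-3p. The range was -1.19 to 0.41 for miR-148b-3p and -1.58 to 0.03 for miR-152-3p.

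**Figure D4:**
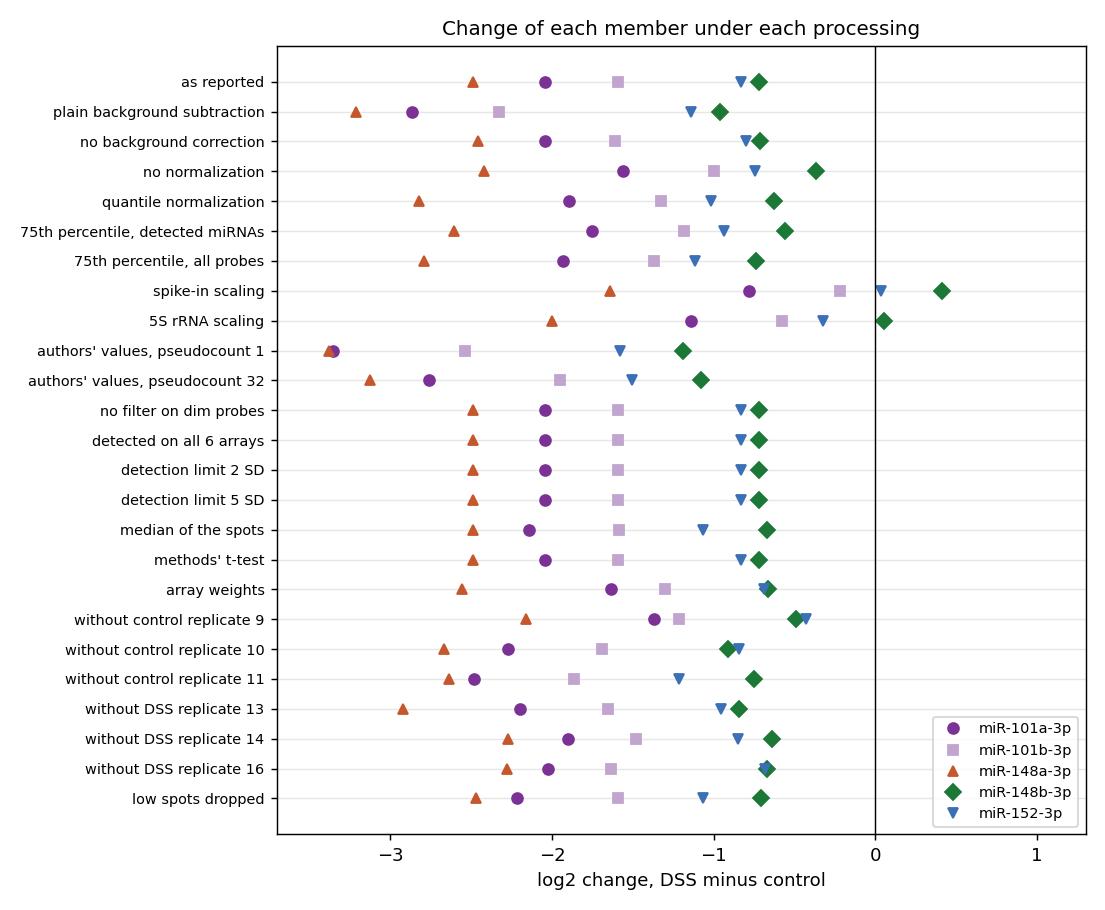
Log2 change of each member (x axis, DSS minus control, one symbol per miRNA) under the processing reported and each alternative (y axis). miR-148a-3p stays between -3.38 and -1.64, and only the spike-in and 5S scalings move miR-148b-3p to the right of zero, the spike-in scaling also miR-152-3p.

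Profiles over the 6 arrays, each centered on its own mean, were set against the mean profile of each family. Such profiles contain the change between the groups on which the members were selected. Nearness therefore in part restates a change of similar size, and no shared regulation is read from it. The nearest to the miR-101 pair was miR-106b-5p, of the miR-17 seed family, at a root mean square difference of 0.18 on the log2 scale, followed by miR-3585-5p, miR-24-2-5p, miR-425-5p and miR-19b-3p at 0.23 to 0.25. The members of the pair themselves lay 0.19 from their mean. For the mean of miR-148a-3p, miR-148b-3p and miR-152-3p the nearest were miR-195-5p at 0.14, then miR-22-3p, miR-20a-5p, miR-140-5p and miR-322-3p at 0.15 to 0.17. Its own members lay up to 0.61 from their mean, so that this mean describes none of the 3 well. The log2 changes of the 5 nearest lay between -1.73 and -1.55 for the miR-101 pair. For the mean of the other family they lay between -1.45 and -1.19.

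Further miRNAs known to target chromatin modifiers were read as a list of 21, of which 15 entered the fit. The list was written with earlier results of these data known. Its counts and adjusted p-values are therefore a description, and nothing is read from them. The median log2 change of the 15 was -0.48, beside -0.06 over all 282. Of the 15, 8 fell and 4 rose at an adjusted p under 0.05 in limma, where 49.3% of all 282 were called in either direction and 20.9% as higher. Some also serve as cell type markers below, miR-1-3p for heart muscle, miR-342-3p for leukocytes, miR-143-3p for smooth muscle, and miR-199a-5p and miR-214-3p for fibroblasts. The 6 left out did not reach detection on 3 arrays.

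Of 6 miRNAs aimed at DNA methyltransferases, 4 fell and none rose, where 28.4% of all 282 were called lower. The 4 were miR-342-3p and the miR-29 family members miR-29a-3p, miR-29b-3p and miR-29c-3p, so that they do not count as unrelated miRNAs. miR-29c-3p, which targets Dnmt3a and Dnmt3b, read 13.22, 10.97 and 12.13 in control and 10.41, 8.57 and 9.11 in DSS hearts, a log2 change of -2.74 (standard error 0.67, adjusted p = 0.0197). miR-29b-3p and miR-29a-3p of the same family changed by -2.04 (adjusted p = 0.0393) and -1.26 (adjusted p = 0.0213). The groups of miR-29b-3p overlapped, with control animal 10 at 8.57 and DSS animal 13 at 8.67. Both calls were lost with spike-in scaling (limma adjusted p = 0.0580 and 0.0994), and that of miR-29b-3p also without normalization (0.0954) and with 5S scaling (0.139). Under spike-in scaling limma gave the tested miRNAs of the list a common standard error, 0.46. The p-values of that scaling therefore do not reflect the spread of each miRNA. The decrease of miR-342-3p was small, -0.48 (adjusted p = 0.0440), and under spike-in and 5S scaling its change was 0.52 and 0.16. miR-143-3p, at -0.47, and miR-185-5p, at 0.05, were not called (adjusted p = 0.0910 and 0.858).

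Of 3 tested miRNAs aimed at Ezh2, the target shared with miR-101, 2 rose and none fell. Of all 282, 20.9% were called higher and 28.4% lower, and 3 miRNAs are too few to read a pattern from. miR-26b-5p read 10.51, 11.72 and 11.97 in control and 12.72, 13.03 and 12.56 in DSS hearts, and rose by 1.37 (standard error 0.39, adjusted p = 0.0280). miR-214-3p rose by 1.12 (standard error 0.30, adjusted p = 0.0224). These calls held under 13 and 14 of 24 alternatives, and both were lost with plain background subtraction (limma adjusted p = 0.0514 and 0.0605), quantile normalization (0.0697 and 0.0511) and 75th percentile scaling over detected miRNAs (0.0721 and 0.0664). miR-26a-5p, which shares its seed with miR-26b-5p, was at 0.10 (adjusted p = 0.664), and its sign turned under 5 alternatives that rescaled the arrays or changed the background correction and without DSS animal 14. With 75th percentile scaling over all probes it passed as lower, at -0.78 (limma adjusted p = 0.0232). Of those aimed at histone deacetylases or SIRT1, the muscle miRNAs miR-1-3p and miR-206-3p rose by 3.11 and 1.23 on the log2 scale (adjusted p = 0.0151 for both). miR-199a-5p, miR-22-3p, miR-140-5p and miR-34a-5p fell, with log2 changes of -1.58, -1.45, -1.33 and -0.89 (limma adjusted p between 0.0151 and 0.0197). miR-140-5p was detected in only 1 of 3 DSS hearts. Under spike-in scaling miR-34a-5p read 0.36. With the common standard error of that scaling miR-140-5p and miR-199a-5p, at -0.06 and -0.44, lost the call (limma adjusted p = 0.931 and 0.441), as they did under 5S scaling. Calls over all miRNAs, and those of the list with them, depended on single arrays. Without DSS animal 16 limma called 0 of the 282 and so 0 of the list. The adjusted p of those called before lay between 0.0614 and 0.131. Without DSS animal 14 it called 69 of the 282 and 4 of the list. The methods' t-test, run on the values used here, called 0 of the 282 after adjustment. At an unadjusted p under 0.05 the fit without DSS animal 16 still passed 129 of the 282.

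**Figure D5:**
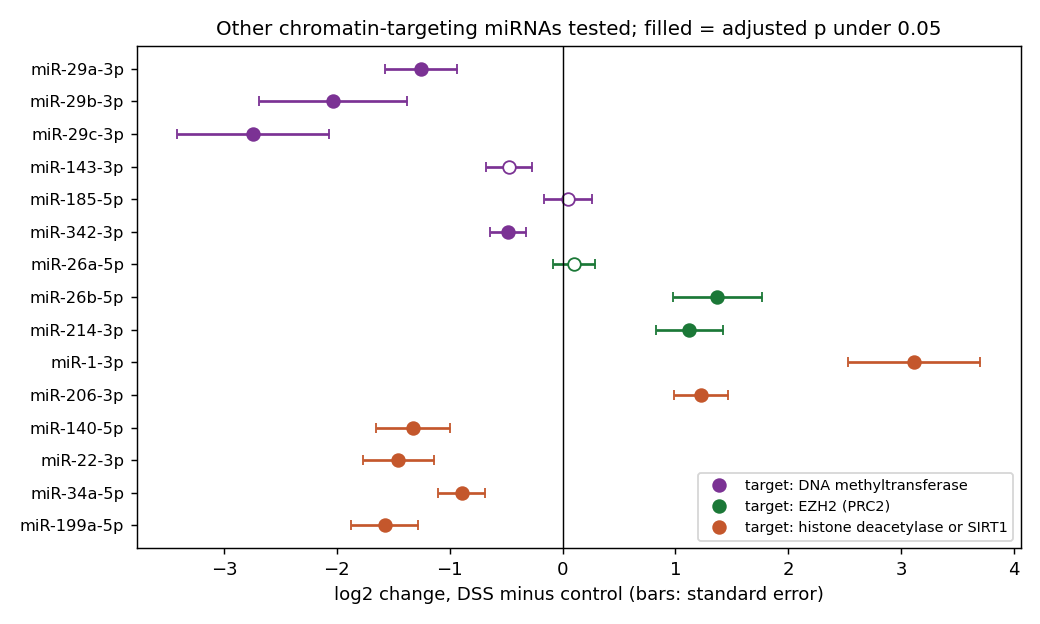
Log2 change (x axis, DSS minus control, bars standard errors, n = 3 per group) of the 15 chromatin-targeting miRNAs tested, colored by target. Filled circles passed an adjusted p of 0.05 in limma. The miR-29 family lies between -2.74 and -1.26, and miR-26b-5p and miR-214-3p lie at 1.37 and 1.12.

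Marker miRNAs of other cell types also differed between the groups. The summed linear signal of the 2 endothelial markers, miR-126a-3p and miR-126a-5p, both detected in each group, was 12259 to 20280 in control and 4694 to 10308 in DSS hearts. This sum was made up mostly of miR-126a-3p, at a log2 change of -1.28 (limma adjusted p = 0.0229). miR-126a-5p, at -1.21, was not called (adjusted p = 0.237), its groups overlapped, and it was detected in 1 of 3 DSS hearts. The 2 smooth muscle markers, both detected in each group, summed to 11724 to 18222 in control and 8230 to 8447 in DSS hearts. The 6 leukocyte markers, of which 5 were detected in control and 4 in DSS hearts, did not move together. Their sum was 2878 to 5539 in control and 9061 to 10474 in DSS hearts. It was made up mostly of miR-150-5p, which rose by 1.59 (limma adjusted p = 0.0201). The change of miR-155-5p was 0.65. It was detected in 0 control and 3 DSS hearts and entered the fit through the DSS hearts alone, so that no p-value is given. miR-223-3p and miR-342-3p fell, with log2 changes of -1.35 and -0.48 (limma adjusted p = 0.0299 and 0.0440), and miR-142-3p and miR-142-5p, detected in 1 control heart each and in no DSS heart, were not tested. The 4 erythroid markers, 3 of them detected, summed to 3078 to 6392 in control and 4033 to 5841 in DSS hearts. Here miR-451-5p and miR-144-5p fell (log2 changes of -2.53 and -0.94) and miR-486 rose by 2.36, all called by limma, as were 49.3% of the 282. miR-144-5p was detected in only 2 control hearts and 1 DSS heart, with a DSS mean of 6.13, so that its change rests partly on signals under the detection limit. The 3 fibroblast markers summed to 4817 to 4921 and 3451 to 4532, where miR-199a-5p and miR-199a-3p fell (-1.58 and -0.75) and miR-214-3p rose by 1.12. The 6 heart muscle markers summed to 41556 to 64817 in control and 38959 to 94832 in DSS hearts, where miR-1-3p rose by 3.11 and miR-499-5p fell (a log2 change of -2.09, limma adjusted p = 0.0213). The part of these shifts in the members' decreases was not tested.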

How the data were processed

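Heart miRNA was measured on 6 arrays, 3 control and 3 DSS. The members and lists were chosen with earlier results of these data known. Per the file headers, the scanner intensity values are the median brightness and pixel SD of each spot, not normalized and with background included. The authors also deposited a table of processed intensity values, background-subtracted and LOWESS-filtered, in whole numbers, whose rule for combining repeated spots is not given in the sources used here. Replicates are separate animals, and the number of arrays limits the precision. Background was corrected with normexp in limma 3.58.1 (R 4.3.3, offset 50), log2 spot values were averaged and cyclic LOWESS (span 0.7, 3 iterations) was applied over the 761 miRNA probes. Detection followed the methods, the background being the median over the dimmest 25% of spots and its SD that of 632 empty spots. miRNAs detected on at least 3 arrays were fitted with limma (lmFit, eBayes), and p-values were adjusted by Benjamini-Hochberg over all 282. This replaced the methods' t-test. As an alternative that t-test was run on the values normalized here, not on the authors' values, and adjusted in the same way. The methods name a threshold of p under 0.05 and no adjustment. Named were all member arms, probes sharing bases 2 to 7, called miRNAs of the chromatin list, and the 5 nearest profiles per family. miR-143-3p, miR-185-5p and miR-26a-5p, which were not called, and the single marker miRNAs were named after their values were seen. Marker lists were given as sums. Neither slide nor scan is in the files. The 6 liver and gut epithelial markers, of which 3 were detected in control and 6 in DSS hearts, summed to 1045 to 1338 and 627 to 927. They did not move together. miR-192-5p and miR-194-5p fell (log2 changes of -1.37 and -1.32), while miR-122-5p, miR-215, miR-200b-3p and miR-200c-3p had higher means in DSS hearts (0.18 to 0.55). Probes that were not detected also add to the sum through the offset of 50. Mature sequences of 9 of the 10 arms matched RefSeq, and miR-148b-5p was not matched. Of the alternatives, 23 were planned and 1 was added later. Figures were drawn with matplotlib 3.10.9 in Python 3.11.15.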

Additional observations from a re-analysis of the deposited data

How the results depend on the processing

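No paired analysis was possible because control and DSS rats carry different numbers. The median log2 change of the 5 members, -1.59, was -2.33 with plain background subtraction, -0.998 without normalization, -0.22 with spike-in scaling (3 of 5 lower), -0.58 with 5S rRNA scaling, and -2.54 on the authors' values with a pseudocount of 1. Leaving out 1 array gave -1.87 to -1.21, with 5 of 5 lower. Of the miRNAs tested 49.3% were called (139 of 282), 9.72% without the filter on dim probes (74 of 761), 0% in the methods' t-test (55.0% at an unadjusted p under 0.05) and 0% to 50.4% with 1 array left out, with 0 calls without DSS animal 16, 69 without DSS 14 and 84 without control 9. The share of calls that were lower moved from 57.6% to 31.9% without normalization, 7.50% with spike-in scaling and 9.79% with 5S scaling. The 12 calls of the chromatin list became 6 with spike-in scaling, 7 with 5S scaling, 6 without the filter, 0 in the methods' t-test and 0 to 11 with 1 array left out (0 without DSS animal 16, 4 without DSS animal 14). Under spike-in scaling the tested miRNAs of the list had a common standard error, 0.46. Opposite signs were found for miR-148b-3p (0.41 spike-in, 0.053 5S), miR-152-3p (0.033), miR-143-3p (0.025), miR-342-3p (0.52, and 0.16 with 5S) and miR-34a-5p (0.36) under spike-in scaling. They were also found for miR-185-5p and miR-26a-5p with plain subtraction (-0.24 and -0.12), quantile normalization (-0.19 and -0.16), 75th percentile scaling over detected miRNAs (-0.14 and -0.59) or all probes (-0.32 and -0.78), without DSS replicate 14 (-0.12 and -0.0055; leaving out any 1 array gave -0.12 to 0.16 for miR-185-5p and -0.0055 to 0.23 for miR-26a-5p), for miR-26a-5p without normalization (-0.41) and for miR-185-5p on the authors' values (-0.25 and -0.24). Causes were not tested. Of 545 values of single miRNAs outside the members, 408 kept direction and side of the threshold, 117 lost the call and 3 gained it. The slide or scan block was not run.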
